A study of Mus musculus with 6 samples.

Results

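The tricarboxylic acid cycle, the entry of pyruvate into it and the itaconate branch were followed through 34 genes, named by symbol, in colonic lamina propria macrophages isolated by cell sorting and profiled by RNA-seq. All 34 had a row among the 25124 gene rows of the deposited table. The E4BP4 transgenic group (TG) comprised 3 libraries from 8-week-old C57BL/6 mice with a macrophage-specific E4BP4 transgene. E4BP4 is a bZIP protein that binds DNA, and Nfil3 is its gene. The wild type group (WT) comprised 3 libraries from C57BL/6 mice of the same age. Every mouse had received 2.0% dextran sulfate sodium, which damages the colonic epithelium, in the water for 7 days and plain water for 7 more, and cells were collected on day 14. No group went without this treatment. The labels do not name the promoter that drives the transgene, and the genotype field of TG replicates 2 and 3 ends in a different digit from that of replicate 1, so the titles were followed.

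In the cycle, citrate synthase joins acetyl-CoA to oxaloacetate, and a ring of dehydrogenases then passes electrons to NAD, NADP and the respiratory chain. Pyruvate reaches it through a mitochondrial carrier and the pyruvate dehydrogenase complex, or through pyruvate carboxylase. In inflammatory macrophages the enzyme encoded by Acod1 removes cis-aconitate from the cycle to make itaconate, which inhibits succinate dehydrogenase.

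Libraries held 13.97 to 15.06 M reads in genes, recovered from the deposited values, of 17.58 to 18.90 M reads stated in the file headers for TG and 17.25 to 17.92 M for WT. Nfil3 averaged 136 ± 3.99 TPM in TG and 119 ± 1.40 TPM in WT libraries (SD, n = 3 each), a TG to WT ratio of 1.14. TPM is a transcript abundance scaled for length and depth. All 14 macrophage markers examined were tested, and their summed level was 20146 to 20242 TPM in TG and 20784 to 21015 TPM in WT libraries. Of these, 4 rose, Adgre1 and C1qa among them, and 6 fell, Lyz2 and Mertk among them, and none was at 0 in every library. Whether each library is a different animal is not stated in the labels. The p-values therefore speak only to variation among these 6 libraries, and that variation may be technical. In sorted bulk samples, fewer cells of a type and less RNA per cell cannot be told apart.

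The genes spanned a wide range of levels. Glud1, which feeds glutamate into the cycle as oxoglutarate, averaged 113 TPM in TG and 115 TPM in WT libraries, and Mdh2, the mitochondrial malate dehydrogenase, 105 TPM in TG and 119 TPM in WT libraries. At the low end stood Pcx, encoding pyruvate carboxylase, at 1.87 ± 0.354 TPM in TG and 2.59 ± 0.602 TPM in WT libraries, and the cytosolic malic enzyme gene Me1, at 0.285 ± 0.0767 TPM in TG and 0.626 ± 0.228 TPM in WT libraries (SD, n = 3 each). Me1 rested on 36 reads in TG and 76 reads in WT libraries and did not reach the mean of 1 TPM in a group required for testing. The other 33 genes were tested, on 703 to 27308 reads each over the 6 libraries. Their median level was 39.2 TPM, against 10.7 TPM for all 12633 genes tested.

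**Figure D1:**
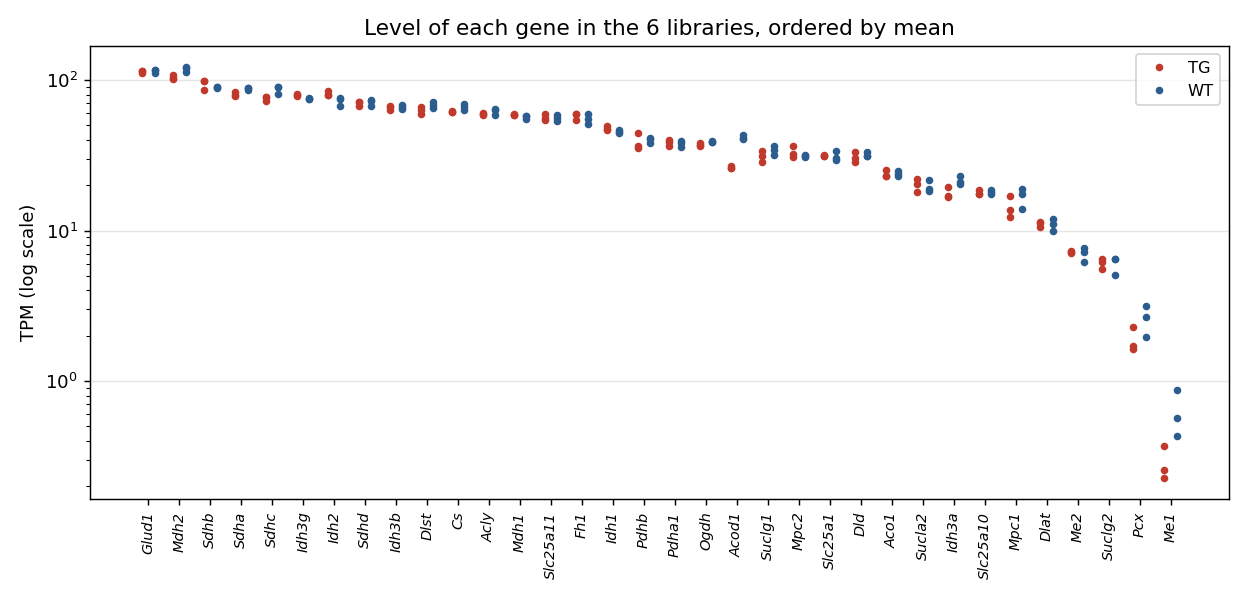
TPM of each of the 34 genes in every library, on a log scale, with TG points left of WT points and genes ordered by their mean. Levels run from Glud1, above 100 TPM, to Me1, below 1 TPM, and the points of the groups lie close together for most genes, with Acod1 set apart among the well expressed ones.

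Acod1 fell in TG macrophages, while transcripts of the cycle itself differed little. Of 33 tested genes 5 fell (Acod1, Mdh2, Sdha, Sdhc and Idh3a) and 0 rose, by limma on log2(TPM + 1) with Benjamini-Hochberg adjusted p below 0.05 over all genes tested. That is 15.2% called, all of them lower, where 21.9% of all tested genes were called, 13.2% lower and 8.71% higher, so the share of these genes that fell lay near the background. With limma-voom on recovered reads 6 fell and 1 rose. Fold changes are TG minus WT and, because 1 TPM is added before the logarithm, come out too small for weakly expressed genes. The median log2 fold change was -0.02 over the 33 genes and -0.01 over all tested genes, and the median size without regard to sign was 0.07 against 0.13. The 95% interval of the fold change lay within 1.25-fold in either direction for 29 of the 33 genes, or 87.9%, against 47.0% of all tested genes, whose median level was lower. Among the 28 genes that were not called, 26 had such an interval, and the other two were Pcx (-0.68 to 0.05) and Mpc1 (-0.53 to 0.10).

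**Figure D2:**
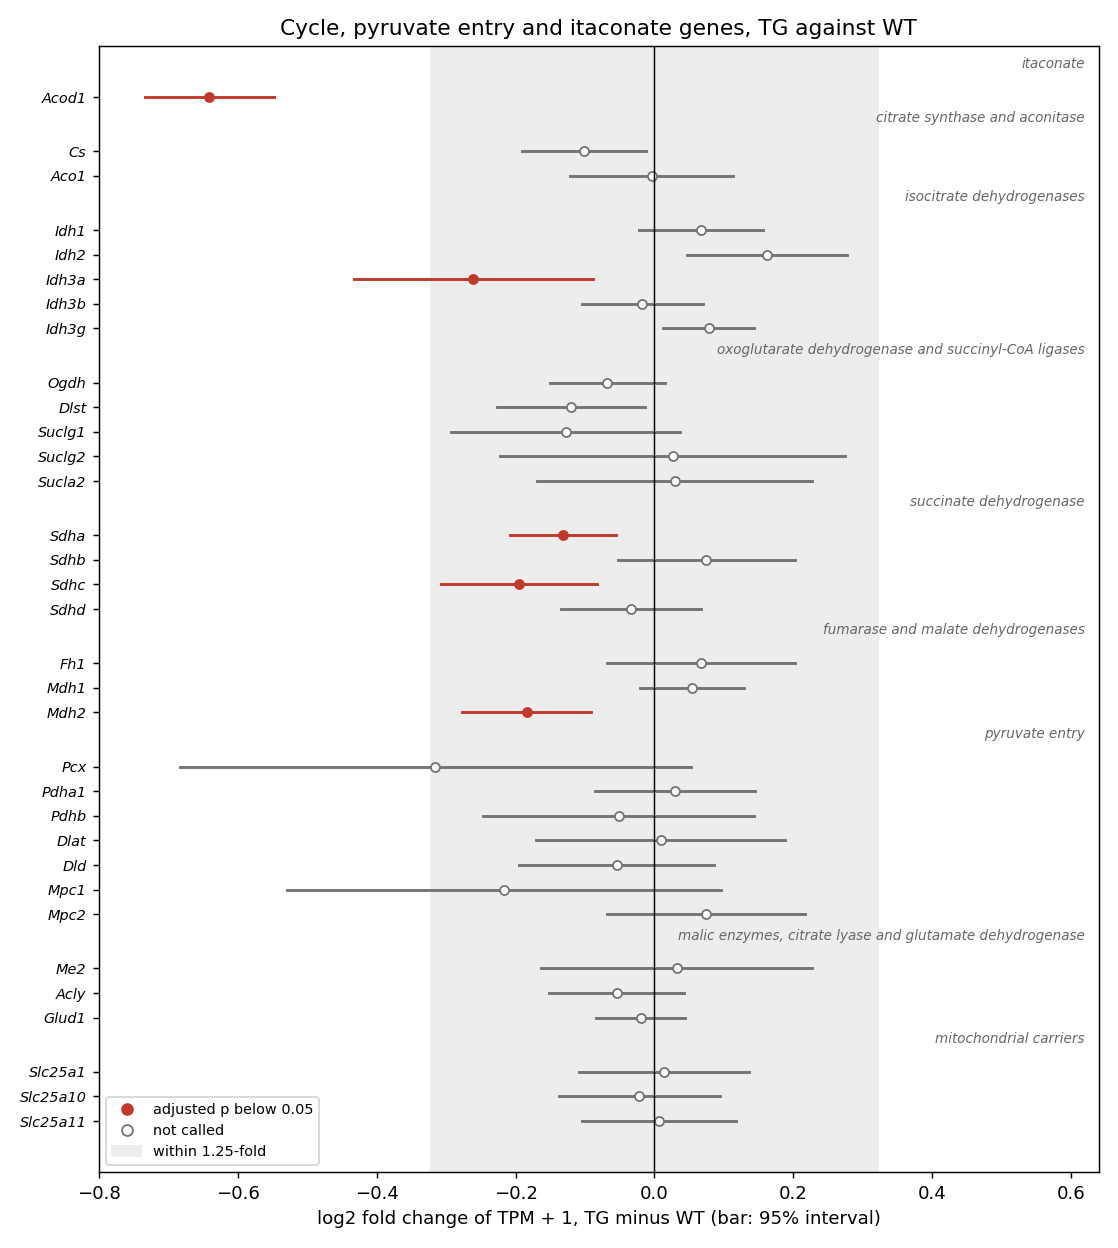
Log2 fold change of TPM + 1, TG minus WT, for the 33 tested genes grouped by role, with 95% intervals as bars and a grey band for 1.25-fold in either direction. Filled red points mark the 5 genes with adjusted p below 0.05, all left of 0, and Acod1 at -0.64 has the 1 interval that lies wholly outside the band.

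Acod1 (NM_008392, chromosome 14 at 103047012 to 103056573, plus strand, mm10) stood at 26.0, 26.1 and 26.8 TPM in TG libraries and at 43.0, 40.6 and 41.1 TPM in WT libraries. Every TG library was well below every WT library. The TG to WT ratio of means was 0.633, with a log2 fold change of -0.64 ± 0.040 SE (95% interval -0.73 to -0.55, limma adjusted p = 3.47e-05). The counts behind it were 2628 reads in TG and 4037 reads in WT libraries. Among all tested genes 2.96% had a lower fold change. Permuting the 6 libraries between groups (exact test on mean TPM, two-sided) returned p = 0.10, and no smaller p can arise with 3 libraries a group. Acod1 was called under all 12 alternatives, with a log2 fold change of -0.66 to -0.55. Per 100 TPM of Cs, the citrate synthase transcript, Acod1 amounted to 42.1, 42.9 and 42.8 TPM in TG libraries and 67.7, 61.4 and 59.3 TPM in WT libraries.

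In mice neutrophils also express Acod1, and neutrophil markers were lower in the same TG libraries. Of 10 tested neutrophil markers 7 fell and 0 rose, and the list of 14 summed to 434 to 489 TPM in TG and 1026 to 1056 TPM in WT libraries. S100a8 and S100a9, which monocytes also express, made up most of these sums, at 154 and 187 TPM in TG and 409 and 439 TPM in WT libraries. The other five that fell included the granule genes Mmp8, at 3.92 ± 0.543 TPM in TG and 14.2 ± 1.07 TPM in WT libraries, and Ngp, at 2.81 ± 0.622 TPM in TG and 8.74 ± 1.48 TPM in WT libraries (SD, n = 3 each). Retnlg fell to 38.9 TPM in TG, against 81.3 TPM in WT libraries. The chemokine receptor gene Cxcr2 and the surface marker gene Ly6g had TG to WT ratios of 0.595 and 0.643. The limma adjusted p of the 7 falls was at most 0.0325. The 3 tested markers that were not called were Csf3r, Padi4 and Cd177, with ratios of 0.964, 0.970 and 1.09. The other four, Mpo, Elane, Camp and Ltf, averaged under 1 TPM in both groups and were not tested. The part of neutrophils in the Acod1 difference was not tested.

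Promoters of called genes are shown because E4BP4 binds DNA and because hypoxia-inducible glycolytic genes fell in the same libraries. RefSeq windows (GRCm38.p6, the mm10 assembly) were found for 31 of the 34 genes, all 31 at the start of the deposited transcript, and of the called genes Acod1, Sdha and Mdh2 had one. The 250 bases before the start were searched on both strands for the E4BP4 core sites TTATGTAA and TTACGTAA and for the hypoxia response element cores ACGTG and GCGTG. Neither E4BP4 core contains a hypoxia core, and the palindrome CACGTG would hold ACGTG on both strands. None of the 31 genes held either E4BP4 core, which was present in 0.931% of all 32851 windows and 0.618% of the 12307 windows of tested genes. A hypoxia core was found for 21 of 31 genes, or 67.7%, against 38.6% of all windows and 54.9% of those of tested genes. A match is a description of letters, not of binding. The 3 sequences run 5′ to 3′ along the gene's strand and end at the base before the start, with hypoxia cores on either strand in capitals. They lie at chr14:103046762-103047011 (plus strand, Acod1), chr13:74350241-74350490 (minus strand, Sdha) and chr5:135778399-135778648 (plus strand, Mdh2).
Acod1: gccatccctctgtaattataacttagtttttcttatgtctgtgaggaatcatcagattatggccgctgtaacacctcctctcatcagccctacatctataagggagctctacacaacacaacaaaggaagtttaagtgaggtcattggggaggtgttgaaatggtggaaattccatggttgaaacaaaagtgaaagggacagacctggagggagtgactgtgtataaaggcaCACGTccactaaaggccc
Sdha: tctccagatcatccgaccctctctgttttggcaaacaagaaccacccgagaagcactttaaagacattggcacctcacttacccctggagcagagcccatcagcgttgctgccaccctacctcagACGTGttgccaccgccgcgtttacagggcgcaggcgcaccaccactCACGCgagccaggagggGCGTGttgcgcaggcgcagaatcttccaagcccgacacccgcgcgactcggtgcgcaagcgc
Mdh2: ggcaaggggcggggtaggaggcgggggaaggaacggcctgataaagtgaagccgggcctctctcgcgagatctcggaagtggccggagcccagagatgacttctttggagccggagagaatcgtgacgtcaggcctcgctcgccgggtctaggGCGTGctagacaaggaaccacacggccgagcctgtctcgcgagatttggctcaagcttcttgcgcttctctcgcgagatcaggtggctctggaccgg
In Acod1 the core began 18 bases before the start, on the opposite strand. Sdha had cores at 125, 79 and 62 bases before the start and Mdh2 at 97 bases.

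Citrate synthase and aconitase lie at the head of the cycle. Cs stood at 61.8, 60.9 and 62.6 TPM in TG libraries and 63.6, 66.1 and 69.4 TPM in WT libraries. The groups did not overlap, but the percent change of the mean, -6.94%, did not pass the test (log2 fold change -0.10 ± 0.039 SE, limma adjusted p = 0.102). The authors' deposited table, in which lengths span the gene with its introns, gave Cs a log2 fold change of -0.13 and an adjusted p of 0.00658. Aco1, the cytosolic aconitase that also acts as an iron regulatory protein, averaged 23.8 TPM in TG and 23.9 TPM in WT libraries (95% interval of the log2 fold change -0.12 to 0.11).

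Of 5 isocitrate dehydrogenase genes 1 fell and 0 rose. Idh3a encodes the catalytic alpha subunit of the NAD-dependent enzyme of the cycle and stood at 19.6, 17.0 and 16.7 TPM in TG libraries and 23.0, 20.4 and 20.9 TPM in WT libraries. The groups did not overlap, with 19.6 TPM in the highest TG and 20.4 TPM in the lowest WT library, and the mean fell by 17.2% (log2 fold change -0.26 ± 0.074 SE, limma adjusted p = 0.0411). Its partner subunits Idh3b and Idh3g averaged 65.4 and 79.5 TPM in TG libraries and 66.2 and 75.2 TPM in WT libraries. Neither was called, although the 3 TG libraries were above the 3 WT libraries for Idh3g (log2 fold change 0.08 ± 0.028 SE, limma adjusted p = 0.0896). Per TPM of Idh3g there were 0.207 to 0.246 TPM of Idh3a in TG and 0.267 to 0.307 TPM in WT libraries.

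Idh2, the mitochondrial NADP-dependent isocitrate dehydrogenase, stood at 79.9, 79.8 and 85.1 TPM in TG libraries and 67.7, 76.0 and 74.9 TPM in WT libraries. All TG libraries were higher, by 12.0% on average, and the test narrowly missed its threshold (log2 fold change 0.16 ± 0.050 SE, limma adjusted p = 0.0533). Idh2 passed it under 4 of 12 alternatives, upper-quartile scaling, the replicate block, limma-voom and the authors' log2 values, with an adjusted p of 0.00294 to 0.157 over all 12. Idh1, the cytosolic form, stood at 47.2, 46.5 and 49.5 TPM in TG libraries and 45.2, 46.7 and 44.6 TPM in WT libraries, which overlapped (limma adjusted p = 0.265). With upper-quartile scaling Idh3g was called as well (log2 fold change 0.12), while Idh3a was not.

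Oxoglutarate dehydrogenase and the succinyl-CoA ligases gave 0 called genes of 5. Ogdh, the E1 subunit of the oxoglutarate dehydrogenase complex, averaged 37.1 ± 0.826 TPM in TG and 38.9 ± 0.408 TPM in WT libraries, and Dlst, its E2 subunit, 62.9 ± 3.11 TPM in TG and 68.4 ± 2.70 TPM in WT libraries (SD, n = 3 each). Their limma adjusted p was 0.228 and 0.105. In the authors' deposited table they had log2 fold changes of -0.10 and -0.18 with adjusted p of 0.00892 and 0.000110. Suclg2 encodes the GTP-specific and Sucla2 the ATP-specific beta subunit of succinyl-CoA ligase. Sucla2 stood at 18.1, 22.0 and 20.3 TPM in TG libraries and 21.7, 19.0 and 18.4 TPM in WT libraries. Suclg2 was lower in every library, at 0.273 to 0.360 of the Sucla2 level in TG and 0.233 to 0.350 in WT libraries, so the groups overlapped. Suclg1, the shared alpha subunit, averaged 31.3 and 34.2 TPM (TG and WT; limma adjusted p = 0.249).

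Succinate dehydrogenase, the target of itaconate and complex II of the respiratory chain, showed different values among its 4 subunits. Sdha, the flavoprotein, stood at 79.2, 82.7 and 78.2 TPM in TG libraries and 85.8, 89.1 and 88.5 TPM in WT libraries, without overlap (log2 fold change -0.13 ± 0.033 SE, limma adjusted p = 0.0246). Sdhc, a membrane anchor, stood at 77.6, 72.4 and 77.4 TPM in TG libraries and 90.0, 89.6 and 81.3 TPM in WT libraries (log2 fold change -0.19 ± 0.048 SE, limma adjusted p = 0.0250). The groups did not overlap for Sdhc either. Sdha fell by 8.80% of the WT mean, and Sdhc fell by 12.8%. Sdhb, the iron-sulfur subunit, stood at 85.6, 98.8 and 98.7 TPM in TG libraries and 90.1, 89.9 and 88.0 TPM in WT libraries. Its TG libraries lay on both sides of the WT range, and without TG replicate 1 it was called higher (log2 fold change 0.14, limma adjusted p = 0.0195). Sdhd, the other anchor, stood at 71.0, 67.1 and 71.3 TPM in TG libraries and 67.6, 73.9 and 73.0 TPM in WT libraries, which overlapped. Sdhc amounted to 0.732 to 0.908 of the Sdhb level in TG and 0.924 to 0.998 in WT libraries. Whether the subunits differ in response was not tested.

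Fumarase and the malate dehydrogenases close the ring. Mdh2 stood at 102, 108 and 103 TPM in TG libraries and 121, 113 and 123 TPM in WT libraries, without overlap, and fell by 12.1% (log2 fold change -0.18 ± 0.040 SE, limma adjusted p = 0.0146). Mdh1, the cytosolic form of the malate-aspartate shuttle, averaged 58.9 ± 0.440 TPM in TG and 56.7 ± 1.39 TPM in WT libraries (SD, n = 3 each; limma adjusted p = 0.276). Its TG libraries were all above its WT libraries, by 3.91% on average. Fh1, encoding fumarase, averaged 57.6 and 55.0 TPM (TG and WT; limma adjusted p = 0.464).

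**Figure D3:**
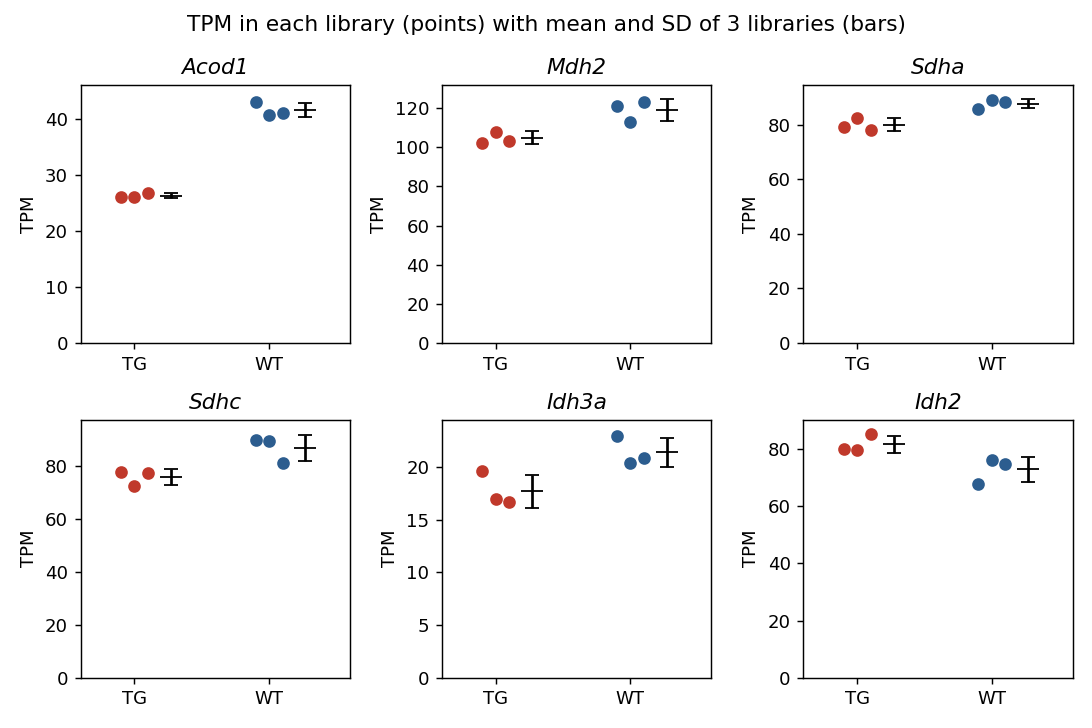
TPM in each library for the 5 genes that fell and for Idh2, on linear axes from 0, with TG left of WT and black bars for the mean and SD of 3 libraries. Acod1 is separated by far more than the spread. The groups of the other genes do not overlap either, but lie closer together in proportion to their level.

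The calls of the small differences were often lost when 1 library was left out. Over all genes, leaving out 1 library gave 704 to 883 higher and 1231 to 1373 lower, against 1100 and 1666 with all 6. Log2 fold changes then ran from -0.33 to -0.21 for Idh3a and -0.24 to -0.16 for Sdhc. For Sdha they ran from -0.16 to -0.12 and for Mdh2 from -0.22 to -0.16. Leaving out 1 library at a time left 1 to 4 of the 5 falls, and Acod1 was called each time. Without TG replicate 3 Acod1 alone was called, and Mdh2 lost its call there (limma adjusted p = 0.0532) but under no other alternative. Idh3a was lost without TG replicate 2 or 3 or any WT library, Sdhc without TG replicate 2 or 3 or WT replicate 1 or 2, and Sdha without TG replicate 1 or 3 or WT replicate 2 or 3. The highest limma adjusted p in these fits was 0.125 for Idh3a, 0.0820 for Sdhc and 0.0864 for Sdha. With no filter on low values Idh3a was not called (limma adjusted p = 0.0732). With upper-quartile scaling 2 genes fell (Acod1 and Mdh2) and 2 rose (Idh2 and Idh3g). That scaling moved the share of higher calls among all called genes to 52.0%, against 39.8%, and the median log2 fold change of all tested genes to 0.02, against -0.01.

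Groups did not overlap for 10 of the 33 genes, or 30.3%, against 39.3% of all tested genes. Of these, 7 were lower (Acod1, Cs, Idh3a, Ogdh, Sdha, Sdhc and Mdh2) and 3 higher (Idh2, Idh3g and Mdh1). Summed over the 33 genes other than Acod1, including Me1, the level was 1519, 1534 and 1538 TPM in TG libraries and 1568, 1562 and 1568 TPM in WT libraries. The TG sums were lower in all 3 libraries, and the groups lay close together. The upper quartile of TPM over all tested genes was also lower, at 27.24 to 27.39 in TG and 27.98 to 28.08 in WT libraries. Whether the sums differ beyond that general offset was not tested. In the authors' deposited table, of the 34 genes 9 had an adjusted p below 0.05, all lower in TG, where 21.3% of 12434 tested genes with a row there did. They were the 5 called genes and Cs, Ogdh, Dlst and Acly.

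Epithelial markers were lower in the same TG libraries, where 9 of 12 fell and the list summed to 512 to 522 TPM in TG and 969 to 973 TPM in WT libraries. Of 8 tested fibroblast markers 5 fell, with sums of 116 to 121 TPM in TG and 161 to 163 TPM in WT libraries. Dendritic cell markers were higher, 4 of 7 tested, at 88.1 to 97.1 TPM in TG and 64.0 to 69.6 TPM in WT libraries for the 8 listed. T cell markers gave 2 higher of 7 and B and plasma cell markers 1 higher of 7, with sums of 128 to 139.8 and 267 to 285 TPM in TG and 117 to 125 and 228 to 242 TPM in WT libraries. No marker in these lists was at 0 in every library. The part of other cell types in the small falls of Mdh2, Sdha, Sdhc and Idh3a was not tested.

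Pyruvate entry gave 0 called genes of 7. The carrier subunit gene Mpc1 stood at 17.1, 12.4 and 13.6 TPM in TG libraries and 17.4, 18.9 and 14 TPM in WT libraries, with wide overlap (limma adjusted p = 0.303). Mpc2, its partner, stood at 30.9, 36.4 and 32.2 TPM in TG libraries and 31.3, 31.0 and 31.8 TPM in WT libraries. Pdha1, the E1 alpha subunit of pyruvate dehydrogenase, stood at 40.1, 36.7 and 39.0 TPM in TG libraries and 36.0, 39.4 and 37.9 TPM in WT libraries. Pdhb, E1 beta, stood at 44.5, 35.2 and 36.2 TPM in TG libraries and 41.0, 40.6 and 38.0 TPM in WT libraries. The E2 gene Dlat averaged 11.1 and 11.0 TPM and the E3 gene Dld 30.7 and 31.8 TPM (TG and WT). For these 4 genes of the complex the 95% intervals of the log2 fold change reached at most -0.25 on the low side and 0.19 on the high side. Pcx had a TG to WT ratio of 0.723, on 300 reads in TG and 403 reads in WT libraries, and did not pass the test (limma adjusted p = 0.205).

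A kinase that switches off pyruvate dehydrogenase did fall. Pdk1, a known target of hypoxia-inducible factor, stood at 6.71, 6.24 and 6.33 TPM in TG libraries and 9.92, 10.3 and 9.52 TPM in WT libraries (log2 fold change -0.55 ± 0.066 SE, limma adjusted p = 0.000915). It was the only call among 9 tested genes of pyruvate dehydrogenase regulation and lipoylation. Pdk2 averaged 8.17 and 8.02 TPM and Pdk3 13.3 and 15.0 TPM (TG and WT; limma adjusted p = 0.858 and 0.187). The phosphatase gene Pdp1 averaged 2.70 and 2.36 TPM, and Pdhx, a structural subunit, 7.37 and 5.95 TPM (TG and WT; limma adjusted p = 0.434 and 0.0851).

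Export and side reactions showed 0 calls among 6 tested genes. Acly, which splits exported citrate into acetyl-CoA, averaged 59.5 ± 0.951 TPM in TG and 61.9 ± 3.10 TPM in WT libraries (SD, n = 3 each; limma adjusted p = 0.406). The carrier genes Slc25a1 (citrate), Slc25a10 (dicarboxylates) and Slc25a11 (oxoglutarate and malate) averaged 31.4, 17.9 and 56.5 TPM in TG and 31.2, 18.1 and 56.2 TPM in WT libraries. Their 95% intervals of the log2 fold change spanned -0.14 to 0.14. The mitochondrial malic enzyme gene Me2 averaged 7.20 and 7.05 TPM (TG and WT; limma adjusted p = 0.826), and Glud1 had a log2 fold change of -0.02 (95% interval -0.08 to 0.04). Me1, left out by the filter, had a log2 fold change of -0.33 with no filter (limma adjusted p = 0.116).

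Genes that supply glutamine and aspartate carbon moved in both directions. Of 13 tested, 1 rose and 4 fell. Glul, glutamine synthetase, rose to 266 ± 4.48 TPM in TG, against 217 ± 1.33 TPM in WT libraries (SD, n = 3 each; log2 fold change 0.29, limma adjusted p = 6.07e-05). The glutamine transporter gene Slc1a5 fell to 39.1 TPM in TG, against 47.3 TPM in WT libraries, and Slc38a1 to 18.4 TPM in TG, against 23.3 TPM in WT libraries. Slc38a2 and Gpt, an alanine aminotransferase, fell by 0.17 and 0.34 on the log2 scale. Over these 4 falls the limma adjusted p ran from 0.00245 to 0.0415. In the authors' deposited table Gpt had an adjusted p of 0.0558.

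Around citrate lyase, 1 of 8 tested genes rose, Acss1, a mitochondrial acetyl-CoA synthetase (20.3 TPM in TG and 16.7 TPM in WT libraries; limma adjusted p = 0.0325), and 1 fell, Hmgcs1 of sterol synthesis (log2 fold change -0.21, limma adjusted p = 0.0491). In the itaconate and hydroxyglutarate list 1 of 5 tested genes fell, Nfe2l2, which encodes the itaconate-responsive factor NRF2 (log2 fold change -0.10, limma adjusted p = 0.00842). Clybl, which clears a product of itaconate breakdown, averaged 7.19 ± 1.33 TPM in TG and 5.70 ± 0.999 TPM in WT libraries (SD, n = 3 each; limma adjusted p = 0.212). The authors' deposited table had Clybl higher in TG, with a log2 fold change of 0.53 and an adjusted p of 0.000408. None of 4 tested assembly factors of succinate dehydrogenase was called. The succinate receptor gene Sucnr1 was listed at 0 in all 6 libraries.

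Other mitochondrial transcripts and glycolysis were read beside the cycle. Of 20 mitochondrial import, chaperone and carrier genes 7 fell and 1 rose, with a median log2 fold change of -0.11. Tomm40, the import channel, fell to 28.8 TPM in TG, against 37.2 TPM in WT libraries, and Hspe1, a chaperonin, rose to 70.3 TPM in TG, against 60.9 TPM in WT libraries. Of 14 hypoxia-inducible glycolytic genes 13 fell and 0 rose, with a median of -0.46. The lactate exporter Slc16a3 fell to 41.3 TPM in TG, against 83.3 TPM in WT libraries, and the glucose transporter Slc2a1 to 44.1 TPM in TG, against 78.6 TPM in WT libraries. Pfkfb3 was the one not called (log2 fold change -0.09, limma adjusted p = 0.171), and the authors' deposited table had it lower in TG (log2 fold change -0.15, adjusted p = 4.20e-05). These lists were chosen with earlier results of these data known, so the glycolytic fall is not independent evidence, and the difference between the lists was not tested.

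**Figure D4:**
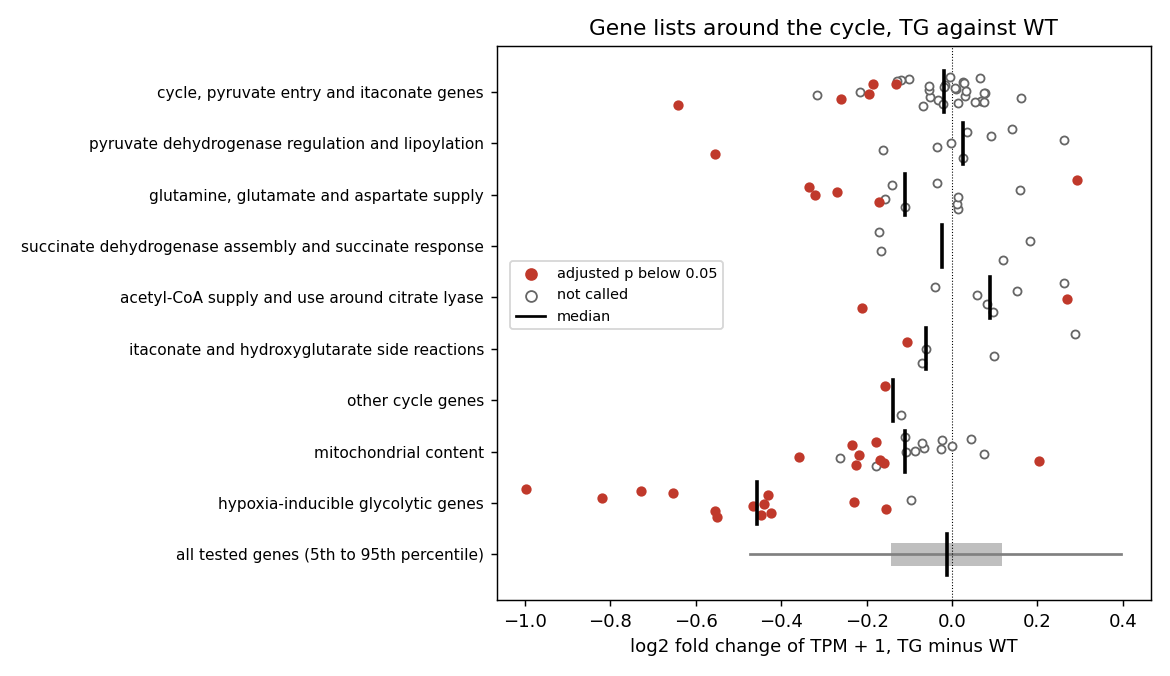
Log2 fold change of TPM + 1, TG minus WT, for each tested gene of the cycle, pyruvate entry and itaconate genes and of 8 neighbouring lists, with medians as black bars and the grey box and line giving the quartiles and the 5th to 95th percentile of all tested genes. Most cycle genes cluster around 0 with Acod1 far to the left, whereas 13 of 14 glycolytic genes lie left of 0 as called genes.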

How the data were processed

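Sorted colon macrophages gave 6 RNA-seq libraries, 3 TG and 3 WT, grouped by title. Per the submitters' processing notes, the tools were bcl2fastq, STAR, HOMER 4.11.1 and DESeq2 with build mm10, and neither settings nor order is stated in the sources used. TPM per RefSeq transcript, over exons, is the unit the authors deposited, per the file headers. Their second deposited table of 24421 rows holds log2 expression values, log2 fold changes and the p-value of each gene with its adjusted form, and gene lengths equal to the span in 100% of rows. It lists Acod1 under an older symbol, matched by transcript. Strand is not described, so antisense overlaps could not be told apart.

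Reads were recovered from TPM and exon length, with 100% of values of up to 1000 reads whole (tolerance 0.1 reads). Libraries held 13.97 to 15.06 M such reads, and a count of 0 allows 3 reads, or 0.113 to 0.122 TPM for 2000 bases, for counting error only. Genes averaging 1 TPM or more in TG or WT were tested with limma 3.58.1 (trend option, R 4.3.3) on log2(TPM + 1), genotype being the single term, at Benjamini-Hochberg adjusted p below 0.05. The code was tested on simulated reads with counting error only, with 50 genes changed at each size. It recovered 31 of 50 at 1.25-fold, 37 at 1.5-fold, 43 at 2-fold and 47 at 4-fold. Of its calls 8.67% were false. Alternatives were a pseudocount of 0.1, no filter, upper-quartile scaling, a replicate block, each library left out, limma-voom on recovered reads and limma on the authors' log2 values.

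The genes and lists were chosen with earlier results of these data known. By rule, any of the 34 genes could be named, called genes whose groups do not overlap and paired subunits were given per library, and up to 4 called genes of each neighbouring list were named. Other genes outside the 34, such as Clybl, Pfkfb3, Pdhx, Pdp1 and single cell type markers, were named after their values were seen.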

Additional observations from a re-analysis of the deposited data

How the results depend on the processing

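Of 396 values of the 33 tested genes under the 12 alternatives, 337 kept direction and side of the threshold, 18 lost and 12 gained a call, and 29 changed sign. Those 29 belonged to 13 genes, reached at most 0.075 in size and passed no threshold, and the cause was not tested. Acod1 kept its call throughout. With upper-quartile scaling 2 genes rose and 2 fell, the median was 0.018, and sign changed for Aco1 (0.032), Idh3b (0.02), Sdhd (0.004), Slc25a10 (0.014) and Glud1 (0.018). With limma-voom 1 gene rose and Aco1 changed sign (0.003). On the authors' log2 values 10 genes fell and 1 rose, the median was -0.048, 2843 genes of all tested fell, 5 genes of the neighbouring lists rose, and sign changed for Pdha1 (-0.013), Me2 (-0.027), Slc25a1 (-0.031) and Slc25a11 (-0.036). With the replicate block 1 gene rose (Idh2). Same-numbered libraries did not deviate together (correlations of -0.013, -0.043 and 0.032 across genes). The labels do not state whether the numbers pair the samples, and these correlations cannot settle it.

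Leaving out 1 library gave 0 to 1 genes higher and 1 to 4 lower, a median of -0.042 to -0.009, and 704 to 883 higher and 1231 to 1373 lower over all genes. The lowest counts of higher genes were 704 without TG replicate 2 and 721 without TG replicate 3. Log2 fold changes that changed sign ranged from -0.041 to 0.018 for Aco1, -0.043 to 0.009 for Idh3b, -0.075 to 0.082 for Suclg2, -0.033 to 0.10 for Sucla2, -0.003 to 0.065 for Pdha1, -0.15 to 0.009 for Pdhb, -0.058 to 0.068 for Dlat, -0.043 to 0.089 for Me2, -0.022 to 0.067 for Slc25a1 and -0.027 to 0.042 for Slc25a11. Depth limits Me1 and Pcx, whose reads were few.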
